A study of Mus musculus with 6 samples.

Results

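The 6 genes Kif23, Nuf2, Plk1, Tpx2, Prc1 and Cdk1 were followed in CypD knockout and wild-type mouse embryonic fibroblasts. They were chosen by name, as every probe whose single symbol in the annotation of the deposited processed table is 1 of these genes. This gave 10 probes, of 10653 probes with a single symbol that cover 7606 genes. Kif23 had 4 probes, Cdk1 had 2, and each of the others had 1. All 10 passed the filter on dim probes.

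The study set 3 CypD knockout arrays against 3 wild-type arrays, and its title places cyclophilin D in cell cycle progression and chemokine-directed motility. CypD is cyclophilin D, a peptidyl-prolyl isomerase of the mitochondrial matrix encoded by Ppif. Both groups were fibroblasts grown from E13.5 embryos of the C57BL/6 background, no treatment is labelled, and total RNA was measured on Illumina bead arrays. The labels give replicate letters A, B and C but name no embryo, litter or culture. A p-value here therefore speaks of array-to-array spread alone, and that spread could be technical.

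Mitosis begins when Cdk1, the catalytic partner of the A-type and B-type cyclins, is freed of inhibitory phosphate. Plk1, the polo-like kinase, helps this activation and later acts at centrosomes, kinetochores and the midbody. Tpx2 nucleates spindle microtubules near chromatin and activates the kinase Aurora A. Nuf2 is a subunit of the Ndc80 complex, which ties kinetochores to microtubule ends. Prc1 bundles the antiparallel microtubules of the central spindle, and Kif23, a kinesin also called MKLP1, forms the centralspindlin complex that directs the cleavage furrow. Transcripts of such genes accumulate late in the cell cycle, so in a culture they follow the share of dividing cells as well as the level per cell. In these bulk samples a different share of cells in division and a different amount of RNA per dividing cell cannot be told apart.

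Many promoters of late cell cycle genes carry a CHR element, with the core TTTGAA, near the transcription start, and CCAAT boxes bound by the factor NF-Y upstream of it. The promoter windows of Kif23, Nuf2 and Plk1 are shown because these members passed the test and differ in direction. They are RefSeq windows of mouse build GRCm38.p6, from 250 bases before the annotated start to 50 after it, read 5′ to 3′ on the strand of the gene. Capitals mark TTTGAA and CCAAT, searched on both strands as TTTGAA or TTCAAA and CCAAT or ATTGG.
Kif23, chr9:61946750-61947049, minus strand: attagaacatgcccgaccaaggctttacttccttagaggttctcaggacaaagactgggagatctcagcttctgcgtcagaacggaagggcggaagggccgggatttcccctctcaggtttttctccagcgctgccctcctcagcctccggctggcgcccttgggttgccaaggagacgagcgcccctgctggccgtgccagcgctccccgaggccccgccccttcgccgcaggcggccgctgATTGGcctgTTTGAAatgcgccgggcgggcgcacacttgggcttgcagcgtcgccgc
Nuf2, chr1:169531415-169531714, minus strand: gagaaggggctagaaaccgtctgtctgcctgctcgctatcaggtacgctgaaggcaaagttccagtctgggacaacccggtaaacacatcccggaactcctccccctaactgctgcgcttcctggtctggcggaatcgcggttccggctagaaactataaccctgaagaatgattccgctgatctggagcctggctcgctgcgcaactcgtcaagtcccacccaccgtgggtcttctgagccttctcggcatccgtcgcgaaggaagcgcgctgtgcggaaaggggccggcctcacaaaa
Plk1, chr7:122159185-122159484, plus strand: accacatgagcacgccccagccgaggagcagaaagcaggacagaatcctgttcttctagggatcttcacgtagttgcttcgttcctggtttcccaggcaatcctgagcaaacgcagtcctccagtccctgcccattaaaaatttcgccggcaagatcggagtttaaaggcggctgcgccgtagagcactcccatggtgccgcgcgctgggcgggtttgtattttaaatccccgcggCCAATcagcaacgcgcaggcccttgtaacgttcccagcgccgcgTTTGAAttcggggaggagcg

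In the Kif23 window CCAAT begins 7 bases upstream of the first transcribed base, on the opposite strand, and TTTGAA begins 2 bases downstream of it. In the Plk1 window CCAAT begins 14 bases upstream and TTTGAA 30 bases downstream. Neither motif was found in these letters for Nuf2. The Cdk1 window held TTTGAA 2 times and CCAAT 3 times, and each of the Prc1 windows, which belong to neighbouring annotated starts, held each motif 1 time. Tpx2 had no window in the table. Of 32851 windows in the table, 17.9% held TTTGAA, 37.4% held CCAAT and 6.95% held both. A match describes letters and is not evidence of binding. Other forms of the CHR element were not searched, so an empty window does not show that the element is absent. Windows with both motifs include those of Prc1 and Cdk1, which did not pass.

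**Figure D1:**
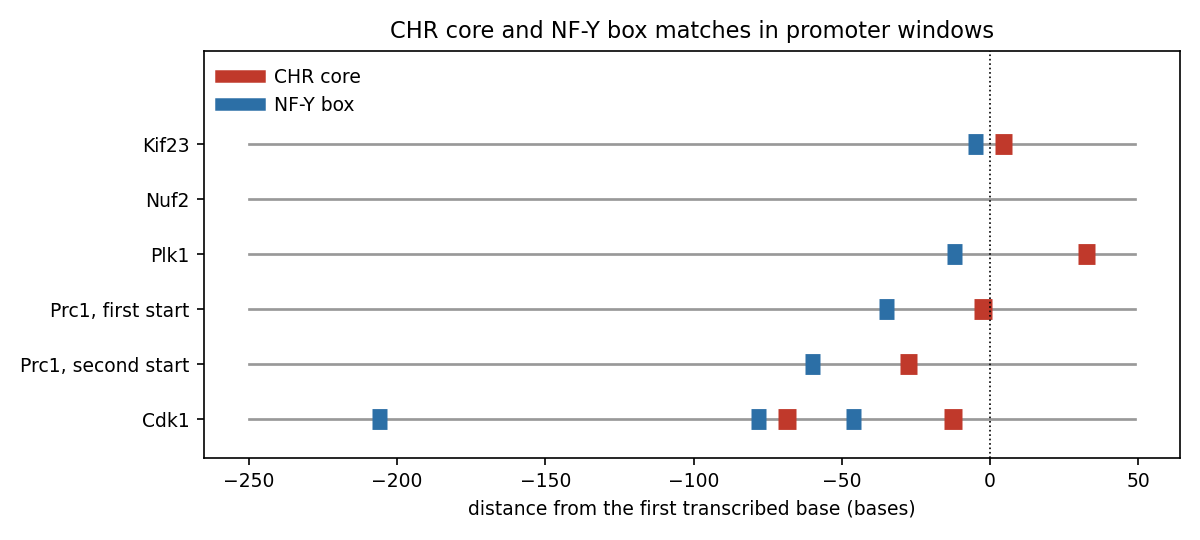
Positions of the CHR core (red) and the CCAAT box that NF-Y binds (blue) in the promoter windows of 5 genes, by distance in bases from the first transcribed base. Kif23, Plk1, Prc1 and Cdk1 hold both motifs, and the Nuf2 line is empty.

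Ppif, the targeted gene, gave log2 intensities of 12.25, 12.35 and 12.18 in knockout A, B and C, against 13.57, 13.70 and 13.62 in wild type A, B and C. It was 2.59-fold lower (limma adjusted p = 2.96e-09) yet still bright. No source used here places its single probe inside or outside the deletion, so the fall cannot be read as a check of the deletion itself. Median deposited intensities were 226 to 229 on knockout arrays and 223 to 251 on wild-type arrays. Log2 intensities correlated across probes at 0.994 within knockout, at 0.992 to 0.994 within wild type and at 0.984 to 0.986 between groups. The fibroblast genes Col1a1 and Fn1 stood at the 97.8th and 96.5th percentile of all probes by mean intensity, while the probe of Vim, a defining marker, was dim, at the 66.5th. Of 10 tested fibroblast markers 3 rose, 4 fell and 3 did not pass. Summed markers of other cell types differed between the groups. The 4 tested neural markers of 11 listed summed to log2 10.93 to 11.00 in knockout and 12.49 to 12.65 in wild type, and the 2 endothelial markers of 8 to 10.36 to 10.54 in knockout and 10.92 to 11.16 in wild type. The 3 epithelial markers of 7 summed to 10.83 to 10.92 in knockout and 10.42 to 10.48 in wild type, and the 10 fibroblast markers, of 14 listed, to 14.84 to 15.05 in knockout and 15.23 to 15.26 in wild type. Within the fibroblast, endothelial and epithelial lists the markers did not move together. Of the endothelial markers Cd34 fell by 0.79 and Eng rose by 0.52, and of the epithelial markers Spint1 rose by 0.78, Krt19 fell by 0.35 and Cdh1 gave -0.09 and did not pass. The 4 neural markers were all lower in knockout. Stmn2, Mbp and Nes fell by 2.79, 0.95 and 0.94, and Dcx gave -0.15 and did not pass. The sums of the 2 leukocyte and of the 2 skeletal muscle markers and the 1 erythroid marker overlapped between the groups. Of the muscle markers, Acta1 fell by 0.79 (limma adjusted p = 0.00028), while Myl4 gave 0.16 and did not pass. Neither leukocyte marker passed, with Cd14 at -0.25 and Coro1a at 0.30. An array signal has no true zero, so no marker could be called absent, and the part of these differences in the results below was not tested.

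By the brightest probe of each gene, 3 of the 6 mitotic genes rose in knockout cells (Kif23, Plk1 and Tpx2), 1 fell (Nuf2) and 2 did not pass (Prc1 and Cdk1). The test was limma across 27168 probes, at a Benjamini-Hochberg adjusted p under 0.05. Of all named genes tested the same way, 43.6% were called, 21.8% upward and 21.8% downward. Of the 4302 named genes at least as bright as Nuf2, the dimmest member by brightest probe, 50.5% were called. Counted by probe, 4 of the 10 were called, 3 upward and 1 downward, against 42.1% of named probes, 20.5% upward and 21.6% downward, and 20% of all tested probes, 9.78% upward and 10.2% downward. The groups did not overlap for 5 of the 10 probes, 4 higher and 1 lower in knockout, as held for 54.7% of named probes, 27.1% higher and 27.5% lower. By gene they did not overlap for 4 of the 6, against 56.1% of named genes. A call with a change of at least 2-fold was made for 1 of the 6, against 6.07% of named genes. Named probes are those the authors listed, and each listed probe had a highest processed value at least 1.20 times its lowest, so these shares describe probes that vary.

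Kif23, the cytokinesis kinesin, had the largest change of the 6. Its brightest probe read 18742, 17942 and 18638 intensity units in knockout A, B and C as deposited, against 9809.5, 8727 and 8654 in wild type A, B and C. After normalization the log2 intensities were 14.23, 14.18 and 14.23 in knockout, against 13.10, 13.05 and 13.07 in wild type. Every knockout array lay above every wild-type array, and the spread within a group was small beside the gap. The group means were 14.21 ± 0.030 in knockout and 13.07 ± 0.027 in wild type (SD, n = 3 each). The log2 fold change was 1.14 ± 0.054 (SE, limma adjusted p = 2.33e-09), a 2.20-fold rise. Among 109 named genes in 7 lists of mitotic genes it ranked 1 by size of change, and 4.69% of all 7605 named genes tested changed as much or more.

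The other 3 probes of Kif23 did not pass. The second brightest, annotated to the same RefSeq transcript as the brightest, had log2 intensities of 13.03, 12.86 and 12.76 in knockout, against 12.63, 12.76 and 12.78 in wild type. These values overlapped, and the log2 fold change was 0.16 ± 0.08 (SE, limma adjusted p = 0.199). The third, annotated to another cDNA record, had 10.01, 9.80 and 10.03 in knockout, against 10.18, 10.02 and 9.86 in wild type. Its log2 fold change was -0.07 ± 0.10 (limma adjusted p = 0.701). The fourth, also annotated to another cDNA record, was dim, at the 66.9th percentile of all probes, where background cannot be separated from expression. It had 7.80, 7.95 and 8.03 in knockout, against 7.56, 7.78 and 7.38 in wild type, so the groups did not overlap, and the log2 fold change was 0.35 ± 0.12 (limma adjusted p = 0.0527).

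The change at the brightest Kif23 probe was larger than at the second and at the third probe, by a test of the difference itself. For every gene with several named probes, the log2 difference between its brightest probe and each other probe was taken within each array and compared between the genotypes with limma. Against the second probe the log2 fold change differed by 0.98 ± 0.12 (SE, limma adjusted p = 0.000933). The within-array differences were 1.19, 1.32 and 1.48 in knockout, against 0.47, 0.29 and 0.29 in wild type. Against the third probe it differed by 1.21 ± 0.12 (limma adjusted p = 0.000268). For the dimmest probe, where background cannot be separated from expression, the difference was 0.78 ± 0.14 (limma adjusted p = 0.00649), and nothing is read from it. Of 3046 such pairs in 2267 genes, 7.72% were called, a count that depends on the setting and on the brightness of the probes, and the pair of Kif23 probes that differed most ranked 39 by size. The probes therefore give no single fold change for the gene, and no source used here places the probes along the transcript.

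**Figure D2:**
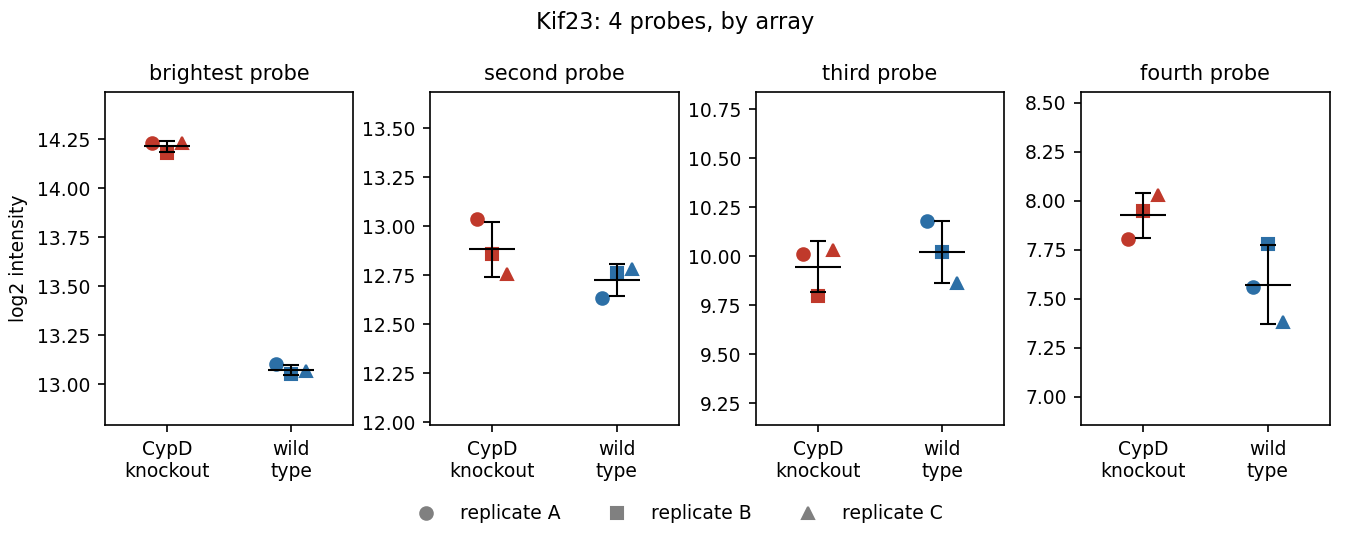
Log2 intensity of the 4 Kif23 probes on each array, CypD knockout (red) left of wild type (blue), with group means and SDs as bars (n = 3 each) and an axis of the same length in every panel. The brightest probe separates the groups by 1.14, while the second and the third probe overlap and the fourth differs by 0.35.

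Nuf2, the kinetochore subunit, fell in the knockout. Its log2 intensities were 9.13, 8.97 and 9.12 in knockout A, B and C, against 9.61, 9.65 and 9.87 in wild type A, B and C. The groups did not overlap. Their means were 9.07 ± 0.088 in knockout and 9.71 ± 0.14 in wild type (SD, n = 3 each), and the log2 fold change was -0.64 ± 0.10 (SE, limma adjusted p = 0.000244), or 1.56-fold lower. On the deposited scale the probe read 649, 570 and 648 in knockout, against 947, 916.5 and 1001 in wild type. It is the dimmest of the 6 brightest probes, at the 79.4th percentile of all probes. It is annotated to a cDNA record that is not among the gene's RefSeq transcripts, as are 3 of the 10 probes, and no second probe was there to set beside it. By size it ranked 4 among the 109 mitotic genes, and 12.4% of all named genes changed as much or more.

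The remaining subunits of the Ndc80 complex gave smaller changes than Nuf2. They were picked as its partners after their values had been seen. Ndc80 itself had log2 intensities of 12.13, 12.13 and 12.34 in knockout, against 12.10, 12.09 and 12.04 in wild type, a log2 fold change of 0.12 ± 0.07 that did not pass (limma adjusted p = 0.298). Spc24, which links the complex to the inner kinetochore, fell by 0.26 ± 0.08 at its brighter probe (limma adjusted p = 0.036), and its other probe gave -0.17 and did not pass. Spc25, the partner of Spc24, gave 0.21 ± 0.07 at its brighter probe (limma adjusted p = 0.0511), and its other probe rose by 0.24 ± 0.07 (limma adjusted p = 0.0356). Within arrays, the Nuf2 log2 fold change was lower than those of Ndc80, Spc24 and Spc25, with differences of -0.76, -0.38 and -0.85. In each comparison the 3 knockout arrays lay below the 3 wild-type arrays. The exact permutation p was 0.1 for each, the smallest that 3 arrays against 3 can give (two-sided, adjusted p = 0.1 over the 3 comparisons).

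Plk1, the polo-like kinase, rose slightly. Its log2 intensities were 13.75, 13.66 and 13.66 in knockout A, B and C, against 13.49, 13.48 and 13.46 in wild type A, B and C. The groups did not overlap after normalization, with means of 13.69 ± 0.053 in knockout and 13.48 ± 0.013 in wild type (SD, n = 3 each). The log2 fold change was 0.22 ± 0.055 (SE, limma adjusted p = 0.0128), a 1.16-fold rise. In the deposited intensities the groups did overlap, with 13568, 12391 and 12564 in knockout, against 12609, 11703 and 11418 in wild type. The call was lost with median scaling (0.14, adjusted p = 0.125), without the intensity trend in limma (adjusted p = 0.088) and without knockout A (0.18, adjusted p = 0.0665).

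Tpx2, the spindle assembly factor, rose by a like amount. Its log2 intensities were 12.70, 12.63 and 12.67 in knockout, against 12.35, 12.49 and 12.47 in wild type. The groups did not overlap, and the means were 12.67 ± 0.033 in knockout and 12.44 ± 0.077 in wild type (SD, n = 3 each). The log2 fold change was 0.23 ± 0.064 (SE, limma adjusted p = 0.0209), a 1.17-fold rise. The deposited intensities were also apart, with 6558, 6161 and 6456.5 in knockout, against 5827, 5898 and 5749 in wild type. The call was lost with median scaling (0.17, adjusted p = 0.0909) and without the intensity trend (adjusted p = 0.082). It was also lost without wild type A (0.19, adjusted p = 0.0935), without knockout A (0.22, adjusted p = 0.0761) and without knockout C (0.23, adjusted p = 0.0662). Changes as large as that of Tpx2 or larger were found in 51.2% of named genes, and for Plk1 the share was 54.7%.

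Cdk1, the kinase that drives entry into mitosis, did not pass. Its brighter probe had log2 intensities of 13.83, 13.74 and 13.83 in knockout, against 13.59, 13.83 and 13.49 in wild type. Wild type B stood at the level of the knockout arrays, while wild type A and C lay below them. The means were 13.80 ± 0.049 in knockout and 13.64 ± 0.18 in wild type (SD, n = 3 each), and the log2 fold change was 0.17 ± 0.078 (SE, limma adjusted p = 0.175). Without wild type B it was 0.26 and passed (adjusted p = 0.0136). The dimmer probe, at the 64.6th percentile of all probes, had 7.62, 7.56 and 7.66 in knockout, against 7.68, 7.34 and 7.75 in wild type. Its log2 fold change was 0.02 ± 0.12 (limma adjusted p = 0.932).

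Prc1, the bundler of the central spindle, had the brightest of the 10 probes and did not pass. Its log2 intensities were 14.84, 14.76 and 14.94 in knockout, against 14.73, 14.79 and 14.66 in wild type, and the groups overlapped. The means were 14.84 ± 0.090 in knockout and 14.72 ± 0.063 in wild type (SD, n = 3 each). The log2 fold change was 0.12 ± 0.058 (SE, limma adjusted p = 0.187), and with median scaling it was 0.01 (adjusted p = 0.945). Prc1, Plk1 and Cdk1 lay near the low end of variation among listed probes, with a highest processed value 1.22, 1.22 and 1.26 times the lowest, and 1.20 times for the dimmer Cdk1 probe.

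**Figure D3:**
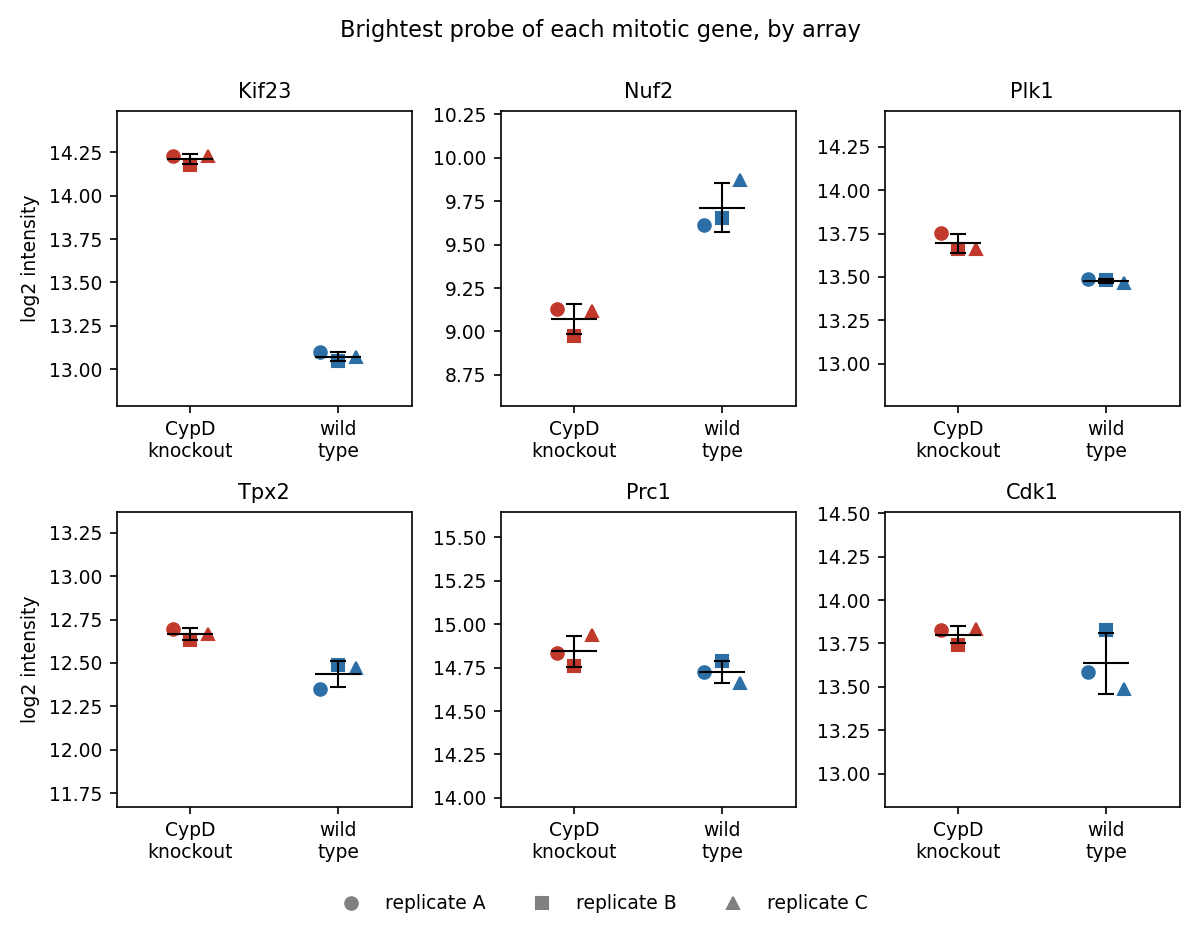
Log2 intensity of the brightest probe of each gene on each array, CypD knockout (red) left of wild type (blue), with group means and SDs as bars (n = 3 each) and an axis of the same length in every panel. Kif23 is higher and Nuf2 lower in all knockout arrays, Plk1 and Tpx2 differ by 0.22 and 0.23, and Prc1 and Cdk1 overlap.

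Kif23 and Nuf2, which changed most by their brightest probes, were set against the other 4 genes. In all 15 pairs of genes the log2 difference between brightest probes was taken within each array. The Kif23 log2 fold change exceeded those of Plk1, Tpx2, Prc1 and Cdk1 by 0.91 to 1.02 and that of Nuf2 by 1.78, and the groups did not overlap in any of these 5 pairs. The Nuf2 log2 fold change was lower than those of the same 4 genes by amounts between -0.87 and -0.76, again with no overlap. Each of these 9 pairs had an exact permutation p of 0.1, the smallest the design allows (two-sided, adjusted p = 0.167 over the 15 pairs). Among Plk1, Tpx2, Prc1 and Cdk1 the 6 differences ran from -0.05 to 0.11, all groups overlapped, and the exact permutation p ran from 0.2 to 0.9 (adjusted p = 0.3 to 0.9). A limma fit of the 15 pairs gave 1 pooled SE of 0.09 for all differences. Being the same for every pair, this value does not measure the spread of any 1 pair, and the pairs also share their 6 probes. Differences among Plk1, Tpx2, Prc1 and Cdk1 were close to this SE or smaller. Equal change cannot be read from them with 3 arrays a group.

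**Figure D4:**
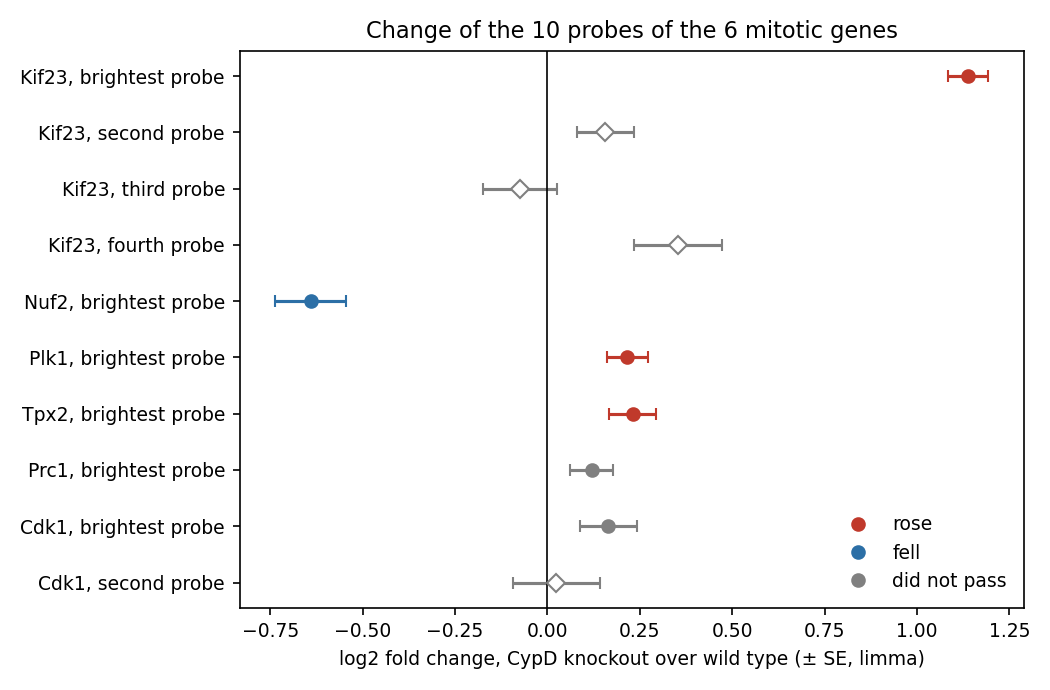
Log2 fold change of the 10 probes, CypD knockout over wild type, with limma standard errors as bars. Filled circles are the brightest probes and open diamonds the others, coloured by whether the probe rose (red), fell (blue) or did not pass (grey). The brightest Kif23 probe stands at 1.14 and Nuf2 at -0.64, and the other 8 lie between -0.07 and 0.35.

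Within the knockout group, array B gave the lowest value for 5 of the 6 brightest probes. The exception was Plk1, where array C was barely lower (13.661 against 13.663). Over all named genes array B was the lowest knockout array for 31.9%, and over the 109 mitotic list genes for 42.2%. Within wild type no array was lowest for more than 3 of the 6.

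The genes whose profile over the 6 arrays lay closest to that of the brightest Kif23 probe, after each profile was centred on its mean, were Sirpa, Ildr2 and Hoxb6. Their root mean square log2 differences from it were 0.033, 0.038 and 0.042, with Pearson r of 0.998, 0.999 and 0.999 across the 6 arrays. For Nuf2 the closest were Sdc3, Troap and Dap, at 0.019, 0.036 and 0.046, with r of 0.999, 0.997 and 0.992. These were the closest of 7604 genes, and all of them share the gap between the genotypes and the 6 arrays.

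Genes that act with the members were read from 7 lists of mitotic genes. Of 178 listed genes, 109 had a tested named probe, with 33 rises, 13 falls and 63 genes short of the threshold. The share called was 42.2%, against 43.6% of all named genes, with 30.3% rising and 11.9% falling, against 21.8% each way. The median log2 fold change was 0.11, against 0.01 over all named genes. Without the 6 members 30 of 103 rose and 12 fell. The count of rises was 21 without knockout A and 20 without the intensity trend, and with median scaling 23 rose and 16 fell. Of the 47 list genes with several probes, 8 had every probe called the same way and 21 had some called and others not.

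**Figure D5:**
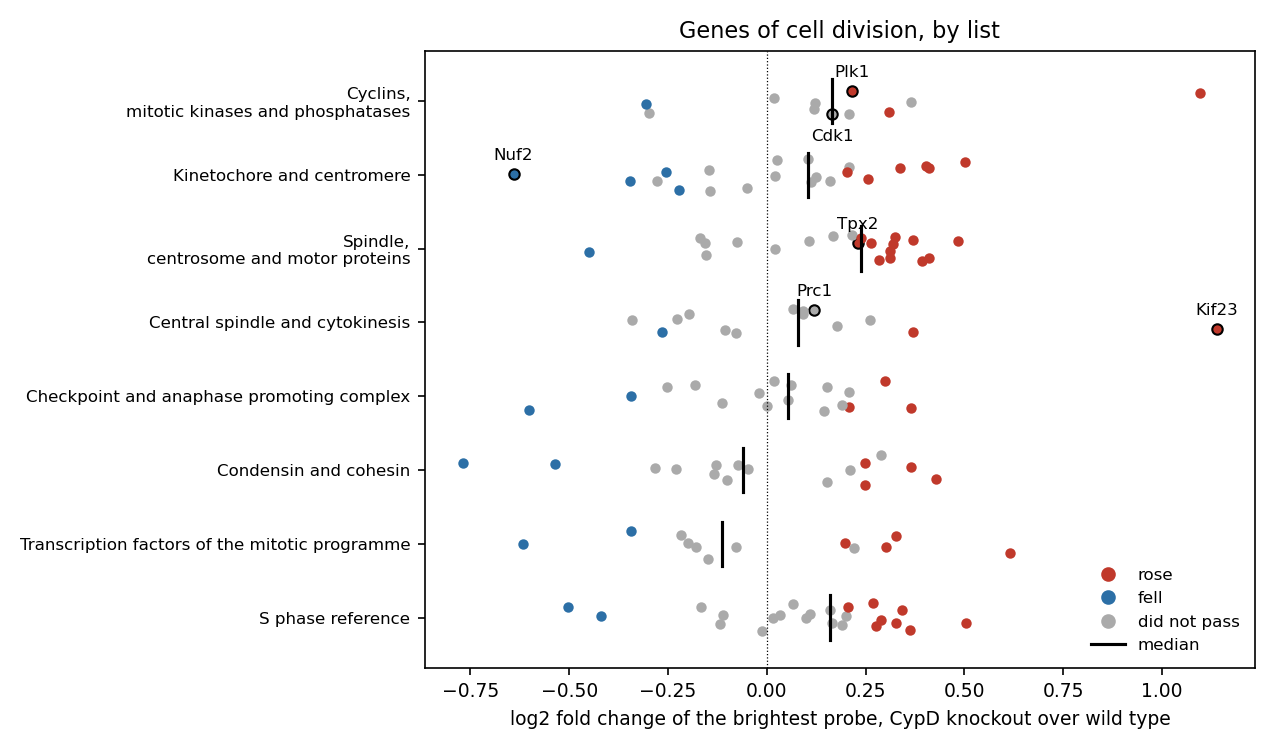
Log2 fold change of the brightest probe of each list gene, CypD knockout over wild type, in the 7 mitotic lists and the S phase list, coloured by whether the gene rose (red), fell (blue) or did not pass (grey). Black bars are list medians, which run from -0.11 to 0.24, and the 6 members are outlined and named.

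Spindle, centrosome and motor proteins held the most rises. Of 21 tested genes 12 rose, 1 fell and 8 missed the threshold, with a median log2 fold change of 0.24. Kif15, a kinesin that helps keep spindle poles apart, rose by 0.41 ± 0.07 (limma adjusted p = 0.000786). Its other probe, dim at a mean log2 intensity of 7.79, gave 0.11 and did not pass. Nde1, a dynein regulator, rose by 0.26 ± 0.06 (adjusted p = 0.00355), and its other probes, at 0.31 and 0.34, also passed. Cep135, a centriole protein, rose by 0.39 ± 0.09 and Aspm, a spindle pole protein, by 0.32 ± 0.07. Haus1, of the augmin complex that branches spindle microtubules, was the 1 that fell, by 0.45 ± 0.07 (adjusted p = 0.000269). Kif11, the kinesin that separates spindle poles, and Cep152, a centriole protein, gave 0.22 and 0.17 and did not pass (adjusted p = 0.0502 and 0.108). No rise exceeded 0.48 on the log2 scale, and 7 were counted without knockout A.

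Among kinetochore and centromere genes 6 of 21 rose, 4 fell and 11 missed the threshold, with a median of 0.11. Cenpn, which reads the centromeric histone, rose by 0.41 ± 0.07 at its brighter probe (limma adjusted p = 0.000429) and by 0.47 at the other. Knl1, the scaffold that receives checkpoint proteins, rose by 0.50 ± 0.11 and by 0.52 at its other probe, and Sgo2a, a shugoshin that protects centromeric cohesion, rose by 0.34 ± 0.07. Mis18a, which helps load the centromeric histone, rose by 0.26 ± 0.06, a call lost without the intensity trend (adjusted p = 0.05). Cenpp fell by 0.35 ± 0.08. Cenpw gave -0.14 and did not pass.

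Of 14 tested genes of the central spindle and cytokinesis, the list of Kif23 and Prc1, 2 rose, 1 fell and 11 did not pass, with a median of 0.08. Beside Kif23 the rise was that of Cep55, a midbody protein of abscission that is also in the spindle list, at 0.37 ± 0.08 (limma adjusted p = 0.00443). The other Cep55 probe, dim at a mean log2 intensity of 7.66, gave -0.19 and did not pass. Myh9, the heavy chain of non-muscle myosin of the contractile ring, fell by 0.26 ± 0.06 (adjusted p = 0.00909). This call was lost without knockout A or the intensity trend, and the other Myh9 probe gave -0.18 and did not pass. Kif20b, a kinesin of late mitosis, gave 0.18 and did not pass (adjusted p = 0.139). Ect2, the exchange factor that centralspindlin recruits, and Kif4, the kinesin that Prc1 brings to the central spindle, were looked up after their values had been seen and gave -0.11 and -0.23 (adjusted p = 0.716 and 0.0585). Racgap1, the partner of Kif23 in centralspindlin, was not analysed here.

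Of 11 tested cyclins, kinases and phosphatases, the list of Cdk1 and Plk1, 3 rose, 1 fell and 7 did not pass, with a median of 0.17. Cdc25a, a phosphatase that activates cyclin-dependent kinases, had log2 intensities of 10.67, 10.63 and 10.84 in knockout, against 9.75, 9.43 and 9.67 in wild type. This brighter probe rose 2.14-fold (1.10 ± 0.10, limma adjusted p = 1.66e-06), while the other gave 0.05. The difference between the probes passed as for Kif23 (1.04 ± 0.17, limma adjusted p = 0.00449). The other probe was dim, with a mean log2 intensity of 8.18, where the offset compresses changes. Cdc25c, the phosphatase of mitotic entry, fell by 0.31 ± 0.09 and by 0.39 ± 0.10 at its other probe (adjusted p = 0.0251 and 0.00973). The first of these calls was lost without any 1 knockout array, without wild type C and without the intensity trend. Pkmyt1, which places inhibitory phosphate on Cdk1, rose by 0.31 ± 0.10 (adjusted p = 0.0473), a call lost in 9 of 16 other fits. Melk, a kinase of dividing cells, gave 0.12 and did not pass.

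Checkpoint and anaphase-promoting complex genes gave 3 rises, 2 falls and 12 genes that did not pass, of 17, with a median of 0.05. Cdc23, a subunit of the complex, fell by 0.60 ± 0.08 (limma adjusted p = 4.82e-05) and Espl1, the separase, by 0.34 ± 0.08. Fzr1, an activator of the complex, rose by 0.30 ± 0.06, although neither other probe passed (0.21 and 0.18). The rises of Mad2l1 and Ube2s (0.21 and 0.37) were lost in 8 and 7 of 16 other fits, while the other Mad2l1 probe rose by 0.32 (adjusted p = 0.00099). The Ube2s probe was dim, with a mean log2 intensity of 7.67, where background cannot be separated from expression. Anapc5 and Cdc20, a subunit and an activator of the complex, gave 0.15 and -0.02 at their brightest probes and did not pass, while another Anapc5 probe fell by 0.26 (adjusted p = 0.0134).

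Condensin and cohesin genes gave 4 rises, 2 falls and 10 that did not pass, of 16, with a median of -0.06. The falls were those of Ncapg2 and Ncaph2, both subunits of condensin II. Ncaph2 fell by 0.54 ± 0.06 (limma adjusted p = 1.61e-05), and its other probes, at -0.51 and -0.38, also passed. Ncapg2 fell by 0.77 ± 0.08 (adjusted p = 8.49e-06), while neither other probe passed (-0.29 and -0.03). Ncapd2 of condensin I rose by 0.43 ± 0.08 and Smc3 of cohesin by 0.37 ± 0.07. The other Ncapd2 probes gave 0.39, which passed, and 0.29, which did not. The other Smc3 probe gave 0.12 and did not pass. The rises of Ncaph and Smc4 (0.25 each) were lost in 7 and 9 of 16 other fits. The other probes of Ncaph and Smc4 gave 0.18 and -0.13 and did not pass. Nipbl, the cohesin loader, and Smc1a gave -0.28 and -0.13 and did not pass at their brightest probes, though 4 of the 7 Nipbl probes were called.

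Among the transcription factors of the mitotic programme, a list that holds repressors as well as activators, 4 of 12 rose, 2 fell and 6 missed the threshold, with a median of -0.11. Mybl2, the MYB protein of the complex that activates late cell cycle promoters, fell by 0.62 ± 0.07 (limma adjusted p = 1.16e-05) and by 0.52 at its other probe. Its brighter probe gave 12.08, 12.09 and 12.21 in knockout, against 12.78, 12.67 and 12.79 in wild type. E2f5, a repressor E2F, rose 1.53-fold (0.61 ± 0.06, adjusted p = 5.26e-06). Tfdp2, a dimer partner of E2F proteins, fell by 0.34 ± 0.08, while neither other probe passed (-0.28 and -0.26). E2f1, E2f7 and Lin54 rose by 0.30, 0.33 and 0.20, calls lost in 4, 4 and 8 of 16 other fits. The other E2f7 and Lin54 probes gave 0.06 and 0.20 and did not pass. Tfdp1 and Rbbp4 gave 0.22 and -0.22 at their brightest probes and did not pass. Of the other Rbbp4 probes, 1 fell by 0.46 (adjusted p = 0.00896) and 1 gave -1.62 ± 0.58 and did not pass (adjusted p = 0.069). Cdkn1a, whose product p21 inhibits cyclin-dependent kinases, gave 11.73, 11.71 and 11.78 in knockout, against 12.29, 12.12 and 12.14 in wild type (-0.44 ± 0.07, adjusted p = 0.000393). Foxm1 and Mki67 were not analysed here.

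Genes of S phase, set beside these lists for comparison, gave 8 rises, 2 falls and 13 that did not pass, of 23, with a median of 0.16. Of these Pcna, the sliding clamp, Orc6, of the origin complex, and Gins2, of the helicase, rose by 0.50, 0.36 and 0.34. Rfc1, a clamp loader, and Rrm1, a ribonucleotide reductase subunit, rose by 0.33 and 0.27. The other Gins2 probes, at 0.39 and 0.59, also passed, while the other Rrm1 probe gave 0.16 and did not. Dut, the dUTPase, fell by 0.50 (limma adjusted p = 0.00033). Tyms and Tk1, of thymidylate supply, gave 0.16 and -0.17 and did not pass.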

How the data were processed

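Total RNA of 3 CypD knockout and 3 wild-type fibroblast samples was measured on 1 Illumina array each. The authors deposited linear probe intensities per array and a table of processed intensities for 12534 of 45281 probes; BeadStudio 3.0 is named in the submitters' processing notes, and no source used here gives other settings. Processed values were 0.981 to 1.01 times the quantile-normalized intensities. With neither detection p-values nor control probes nor slide numbers in the files used, background and slide could not be examined.

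Intensities were corrected with normexp (offset 50), put on the log2 scale, quantile-normalized, and filtered to probes above the 40th percentile of mean intensity. Knockout was compared with wild type in limma 3.58.1 (R 4.3.3; lmFit, eBayes with intensity trend), with two-sided Benjamini-Hochberg adjustment over 27168 probes. The offset compresses changes of dim probes, and the number of arrays limits precision. A gene is represented by its brightest tested probe. Symbols were updated through Entrez identifiers for 10643 of 10653 probes. The procedure was tested on simulated data.

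The members and lists were chosen with earlier results of these data known, so lists are described by counts and medians only. Named genes were the members, up to 6 called genes of lowest p and the 2 brightest uncalled genes per list, Ppif, Cdkn1a, Mki67 where named, and the 3 closest profiles to Kif23 and Nuf2. Samples with the same replicate letter did not deviate together (correlations of 0.101, -0.09 and 0.0753 for A, B and C), so letters were not used as pairs. Alternatives covered background correction, normalization, filter, variance model, the processed table, a replicate block and each array left out.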

Additional observations from a re-analysis of the deposited data

How the results depend on the processing

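The calls of Kif23 (brightest probe, log2 fold change 1.07 to 1.16) and Nuf2 (-0.69 to -0.56) held in all 16 other fits, and the differences of the brightest Kif23 probe from its second and from the third probe passed in every other fit run on pairs of probes. The Plk1 and Tpx2 calls were lost with median scaling (0.14 and 0.17) and without the intensity trend (0.22 and 0.23). With 1 array left out at a time, Plk1 ran from 0.18 to 0.23, Tpx2 from 0.19 to 0.26 and Cdk1 from 0.092 to 0.26. The brightest 5% of probes had a median log2 fold change of -0.05 with median scaling and 0.00 with quantile normalization. Mitotic list genes called numbered 46, and 29 without the intensity trend. Called genes among all named genes numbered 3319, and 2749 to 3645 over the processing alternatives. The fourth Kif23 probe passed in the processed table (0.25, adjusted p = 0.0498) and without wild type B (0.46). Called pairs of probes within a gene numbered 235, 106 at the 70th percentile, where fewer probes are tested, and 148 to 281 with 1 array left out. Over all the processing alternatives they ran from 106 to 315. Other causes were not tested. With the replicate block, probes changed between CypD knockout and wild type numbered 5273, against 5423 without it. The log2 fold changes of the members stayed the same by construction and none of their calls changed. The smallest changes called, near 0.2 on the log2 scale, are at the limit of 3 arrays a group.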

Other observations

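Of 79 probe pairs in the 8 lists of cell division genes, 7 were called as changing unequally, against 7.72% of all pairs tested, so the lists' share was near that of all genes. They were the 3 Kif23 pairs and 1 each of Mcm6, Cdc25a, Ncapg2 and Anapc5, named here after their values were seen. In 3 of these pairs the other probe was dim. Its mean log2 intensity was 7.75 for the fourth Kif23 probe, 7.80 for Ncapg2 and 8.18 for Cdc25a. The offset compresses changes of such probes, so unequal change cannot be read from these 3 pairs alone. Mcm6, a subunit of the replicative helicase, held the largest difference of all 3046 pairs. One of its probes had log2 intensities of 13.58, 13.68 and 13.80 in knockout A, B and C, against 8.69, 8.45 and 8.85 in wild type A, B and C. Its log2 fold change was 5.03 ± 0.10 (SE, limma adjusted p = 7.18e-13). The probe of highest mean intensity had 12.80, 12.65 and 12.89 in knockout, against 12.59, 12.57 and 12.58 in wild type, and did not pass (0.20 ± 0.07, adjusted p = 0.062). The third Mcm6 probe gave 0.28 ± 0.18 and did not pass. The log2 fold changes of the first 2 probes differed by -4.83 ± 0.13 (the probe of highest mean minus the other, SE, limma adjusted p = 7.62e-08).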
